A study of Mus musculus with 12 samples.

Results

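The account below sets the effect of HDAC3 knockout in the mouse heart against that of corepressor mutations described as leaving HDAC3 inactive, gene by gene. It covers the 11662 genes, of 19404 with a value in either experiment, that were listed by symbol in both experiments and reached at least 1 FPKM (a fragment count scaled by transcript length and library size) in 3 or more of the 12 libraries. Hearts of 4 groups were sequenced as total RNA, with 3 libraries in each group. KO hearts are HDAC3 knockouts, called hM in the comparison's name without further explanation, and were set against 3 wild-type (WT) hearts of their own experiment. NS-DADm hearts carry corepressor mutations, the labels describe their HDAC3 as inactive, and they were set against 3 WT hearts of a separate experiment. The KO effect is the mean log2(FPKM + 1) of KO minus that of its WT, the NS-DADm effect is the same for NS-DADm and its WT, and the difference is the KO effect minus the NS-DADm effect. A positive difference means that KO hearts lie higher relative to their WT than NS-DADm hearts do relative to theirs. The knockout allele, the promoter and cell type of any Cre driver, and the strain, age, sex and diet of the mice are not given in the sources used here. Both comparisons have WT libraries of their own, so no control is shared.

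HDAC3, a deacetylase of class I, removes acetyl groups from histone tails near genes repressed by nuclear receptors. It works inside corepressor complexes with NCOR1, TBL1X, TBL1XR1 and GPS2. A deacetylase-activating domain (DAD) of the corepressor binds HDAC3 and switches its enzyme on, and this domain is mutated in NS-DADm mice. In the heart HDAC3 is known for its hold on genes of fat oxidation and mitochondrial metabolism, which nuclear receptors such as PPARα drive. The comparison bears on which effects of HDAC3 in the heart need its enzyme activity. Only RNA was measured here, so neither HDAC3 protein nor its enzyme activity was checked. A called difference alone therefore does not assign an effect to one or the other.

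Some features of the libraries touch the results. The sum of the deposited FPKM per library lay between 605736.6 and 650460.5 for the KO experiment. For the NS-DADm experiment it lay between 531360.8 and 560143.6. Between 10805 and 11207 of the genes reached 1 FPKM in a library. The depth of single libraries was not estimated here. The Y-linked genes Ddx3y and Eif2s3y were between 21.43 and 48.46 FPKM in the 3 KO libraries and at most 0.11 FPKM in the other 9. The KO genotype and Y-linked expression therefore cannot be told apart. This limit holds for the KO effect and the difference of every gene, on any chromosome. Myl7, the atrial myosin light chain, read 13.21, 11.41 and 10.12 FPKM in KO libraries, against 8.38, 7.27 and 7.38 in their WT. It read 446.26, 84.26 and 804.47 FPKM in NS-DADm libraries, against 50.93, 9.77 and 795.5 in their WT. NS-DADm replicates 1 and 3 and WT replicate 3 of that experiment therefore stand apart as rich in atrial transcripts, and of 12 atrial marker genes only Kcna5 had a called difference, which was lower. With Myl7 as a covariate 5 of the 12 were higher and 2 lower. The median spread between replicates, as an SD on the log2 scale, was 0.0646 in KO libraries and 0.0775 in their WT, against 0.0966 in NS-DADm libraries and 0.0988 in their WT. The labels call the replicates biological and name no animals. The p-values therefore describe how far these libraries vary, and that variation may be technical.

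KO hearts and NS-DADm hearts departed from their WT to a very different extent. The difference was called at an adjusted p under 0.05 for 5348 genes, or 45.9% of those tested. It was higher for 3285 genes (28.2%) and lower for 2063 genes (17.7%). In the same fit KO differed from its WT in 7020 genes (60.2%), and NS-DADm differed from its WT in 1140 genes (9.78%). The KO-called genes split into 4086 higher (35.0%) and 2934 lower (25.2%). The NS-DADm-called genes split into 547 higher (4.69%) and 593 lower (5.08%). A difference larger than 1.5-fold was called in 923 genes (7.91%), of which 600 were higher (5.14%) and 323 lower (2.77%). The filter let in 222 genes through KO libraries alone, which bears on the higher counts. With 1 FPKM required in 3 or more libraries of each experiment, 2952 differences were higher and 2001 lower. Beyond 1.5-fold, 501 were then higher and 314 lower. For 6292 genes (54.0%) the 95% interval of the difference lay within 1.5-fold either way. The 3 KO libraries all lay on 1 side of their WT in 8080 genes (69.3%), and the 3 NS-DADm libraries in 2792 genes (23.9%). The effects had an SD across genes of 0.645 log2 units in KO and 0.223 in NS-DADm.

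Most called differences went with a called KO effect. Of the 3285 higher differences 93.0% also had a KO effect called higher, and of the 2063 lower ones 93.2% had a KO effect called lower. The larger fitted effect lay in KO for 4992 of the 5348 called genes (93.3%) and in NS-DADm for 356. A KO effect of 2-fold or more was called higher in 785 genes, with a median of 1.41 log2 units, and the same genes had a median NS-DADm effect of 0.18. Of these, 16 were also at least 2-fold higher in NS-DADm. A KO effect of 2-fold or more was called lower in 371 genes, with a median of -1.34 in KO and -0.18 in NS-DADm, and 10 of them were at least 2-fold lower in NS-DADm. The fitted NS-DADm effect was positive for 79.7% of the 785 genes, against 44.5% of all genes tested. It was negative for 79.2% of the 371 genes, against 55.5% of all genes tested. Across the 11662 genes the effects of KO and NS-DADm had a Pearson r of 0.389, given as a description because genes of a library share that library.

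**Figure D1:**
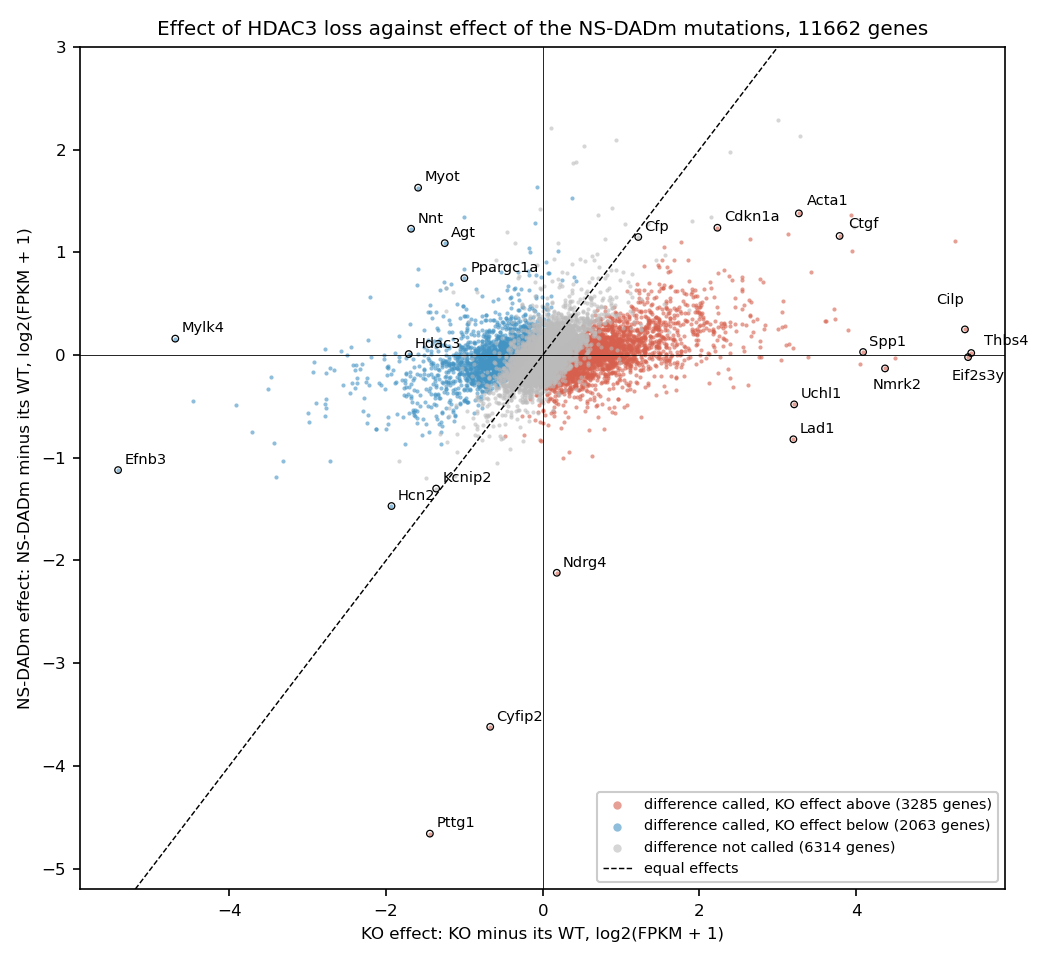
Each point is 1 of 11662 genes, with the KO effect on the x axis and the NS-DADm effect on the y axis, both in log2(FPKM + 1) units, and the dashed line marks equal effects. Red points have a difference called higher (3285 genes), blue points called lower (2063 genes), and circled points are genes named in the text. The cloud is wide along the KO axis (SD 0.645) and narrow along the NS-DADm axis (SD 0.223), with Pttg1, Cyfip2 and Ndrg4 far below the rest.

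The balance of higher and lower differences depends on how the libraries are scaled. As deposited, 61.4% of the called differences were higher, and the median difference over all genes was 0.08. After each library was centred on its median there were 2476 higher and 2773 lower, after quantile normalization 2550 and 2695, and after rescaling to 1 common sum 3718 and 1718. The centring moved the median difference by -0.10. Differences of that size therefore depend on the scaling, and directions are given below as deposited. The counts over lists below stand beside 28.2% higher and 17.7% lower differences over all genes. No gene named by the fixed rule changed the sign of a called difference under these 3 scalings.

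Hdac3 itself separates the genotypes. It read 8.51, 7.31 and 7.88 FPKM in KO libraries, against 27.83, 29.45 and 27.12 in their WT. It read 30.57, 28.98 and 29.98 FPKM in NS-DADm libraries, against 32.05, 29.02 and 28.21 in their WT. The KO libraries all lay below their WT, whereas the NS-DADm libraries overlapped theirs. Hdac3 was 3.56-fold lower in KO, and the difference was -1.72 (95% interval -1.91 to -1.52, limma adjusted p = 4.8e-09). The gene lies at chr18:37936971-37955015 of GRCm38.p6.

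The partners of HDAC3 named here had smaller differences than Hdac3. Ncor1, at chr11:62315663-62457414, had a KO effect of 0.09 and an NS-DADm effect of 0.08, and the interval of its difference ran from -0.15 to 0.17. Of the 12 genes of the class I deacetylase and corepressor list, the difference was higher in 1 and lower in 2, of which 1 was Hdac3. In KO 6 of the 12 were called higher and 3 lower, where 35.0% and 25.2% of all genes were. In NS-DADm 2 were called higher and 1 lower, where 4.69% and 5.08% of all genes were. Tbl1x, which encodes a subunit of the complex, rose in both, by 0.80 in KO and 0.25 in NS-DADm, with a difference of 0.56. Tbl1xr1, its close relative, also rose in both, by 0.40 in KO and 0.76 in NS-DADm. Its difference of -0.36 was lost under 1 alternative. Hdac2 fell in both, with effects of -0.36 in KO and -0.29 in NS-DADm and an interval of the difference from -0.24 to 0.10. The intervals for Hdac1 (-0.08 to 0.39) and Hdac8 (-0.26 to 0.43) also included 0. Among the other classical deacetylases, Hdac11 fell by 1.21 in KO and by 0.27 in NS-DADm, and its difference was -0.94.

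The highest differences belonged to genes that were low in the other 3 groups. For some of them this was set by the filter, which let them in through KO libraries alone. Thbs4, a matricellular thrombospondin of injured muscle at chr13:92751586-92794818, read 121.63, 122.81 and 118.15 FPKM in KO libraries, against 1.65, 1.52 and 2.14 in their WT. In NS-DADm libraries it read 1.21, 0.92 and 2.31 FPKM, against 1.42, 1.35 and 1.36 in their WT. No KO library came near any other library, and the difference was 5.44 (95% interval 4.99 to 5.9, adjusted p = 4.12e-10). Cilp, an extracellular protein of cartilage and scarred heart at chr9:65265180-65280614, behaved alike, with 107.4, 106.98 and 104.9 FPKM in KO libraries and 1.32, 1.84 and 1.55 in their WT. Its NS-DADm libraries held 1.84, 2.41 and 3.45 FPKM, against 1.75, 1.85 and 2.27 in their WT, and the difference was 5.14 (4.74 to 5.54). Nmrk2, a kinase that makes the NAD precursor NMN from nicotinamide riboside and is switched on in stressed heart, read 124.45, 119.04 and 119.43 FPKM in KO libraries, against 5.01, 5.06 and 4.64 in their WT. It read 4.39, 2.57 and 3.26 FPKM in NS-DADm libraries, against 3.57, 4.40 and 3.37 in their WT. The NS-DADm libraries overlapped their WT, and the difference was 4.5 (4.14 to 4.86).

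The other genes at the high end were of mixed function. Lgals3, the galectin of activated macrophages, was 48.3-fold higher in KO and had a difference of 4.15, with a wide interval of 2.74 to 5.55. In NS-DADm it varied between 4.37 and 16.54 FPKM, against 2.48 and 6.86 in their WT, and the higher values were in replicates 1 and 3 of NS-DADm and replicate 3 of WT, the atrial-rich libraries. Spp1 (osteopontin), Serpinb1a (a neutrophil protease inhibitor) and Tnfsf18 (a TNF family ligand) had differences of 4.06, 4.14 and 3.40. The filter let in Spp1 and Tnfsf18 through KO libraries alone, where they are high. Bin1, a membrane-shaping protein of T-tubules, had 100.68, 103.75 and 100.52 FPKM in KO libraries, against 6.31, 5.24 and 6.19 in their WT, and a difference of 3.66. Bin1 lies within 10 Mb of Hdac3 on chromosome 18. Uchl1, a deubiquitinase best known from neurons, and Lad1, an anchoring filament protein of epithelia, stood at 3.69 and 4.02. Eif2s3y and Ddx3y, with differences of 5.46 and 4.53, are on the Y chromosome and also passed the filter through KO libraries alone.

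The lowest differences belonged to genes of mixed function. Mylk4, a myosin light chain kinase of striated muscle at chr13:32700824-32806773, read 0.73, 1.09 and 0.90 FPKM in KO libraries, against 48.32, 47.38 and 48.13 in their WT. It read 83.0, 104.53 and 80.17 FPKM in NS-DADm libraries, against 76.37, 77.16 and 83.93 in their WT. KO libraries were 52.9-fold lower, NS-DADm libraries overlapped their WT, and the difference was -4.85 (-5.12 to -4.57, adjusted p = 6.9e-12). Efnb3, which encodes the ephrin-B3 ligand and lies at chr11:69554092-69561150, fell in both mutants. It read 0.13, 0.40 and 0.22 FPKM in KO libraries, against 48.28, 50.62 and 58.91 in their WT, and 18.21, 20.5 and 16.11 FPKM in NS-DADm libraries, against 38.57, 41.37 and 42.18 in their WT. Neither pair of groups overlapped, and the fall in KO exceeded that in NS-DADm by a difference of -4.30 (-4.60 to -4.00).

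Ptgds, the prostaglandin D synthase of the heart, fell to 26.44, 26.6 and 29.61 FPKM in KO libraries, against 622.99, 651.0 and 610.48 in their WT. It also fell in NS-DADm, with 245.62, 293.85 and 222.79 FPKM against 362.98, 380.79 and 297.16, and the difference was -4.01. Hopx, a small homeodomain protein of the cardiomyocyte, fell by 3.50 in KO and by 0.33 in NS-DADm. Myh7b, a slow myosin heavy chain, Scd4, a fatty acid desaturase of the heart, and Lgr6, a receptor of the R-spondin family, had differences of -3.26, -3.42 and -2.77, and none of them was called in NS-DADm. Scgb1c1, a secretoglobin, had a difference of -2.97. Eif3j2 is a near-identical copy of Eif3j1, so its difference of -2.83 is uncertain, and Eif3j1 stood at 1.39.

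**Figure D2:**
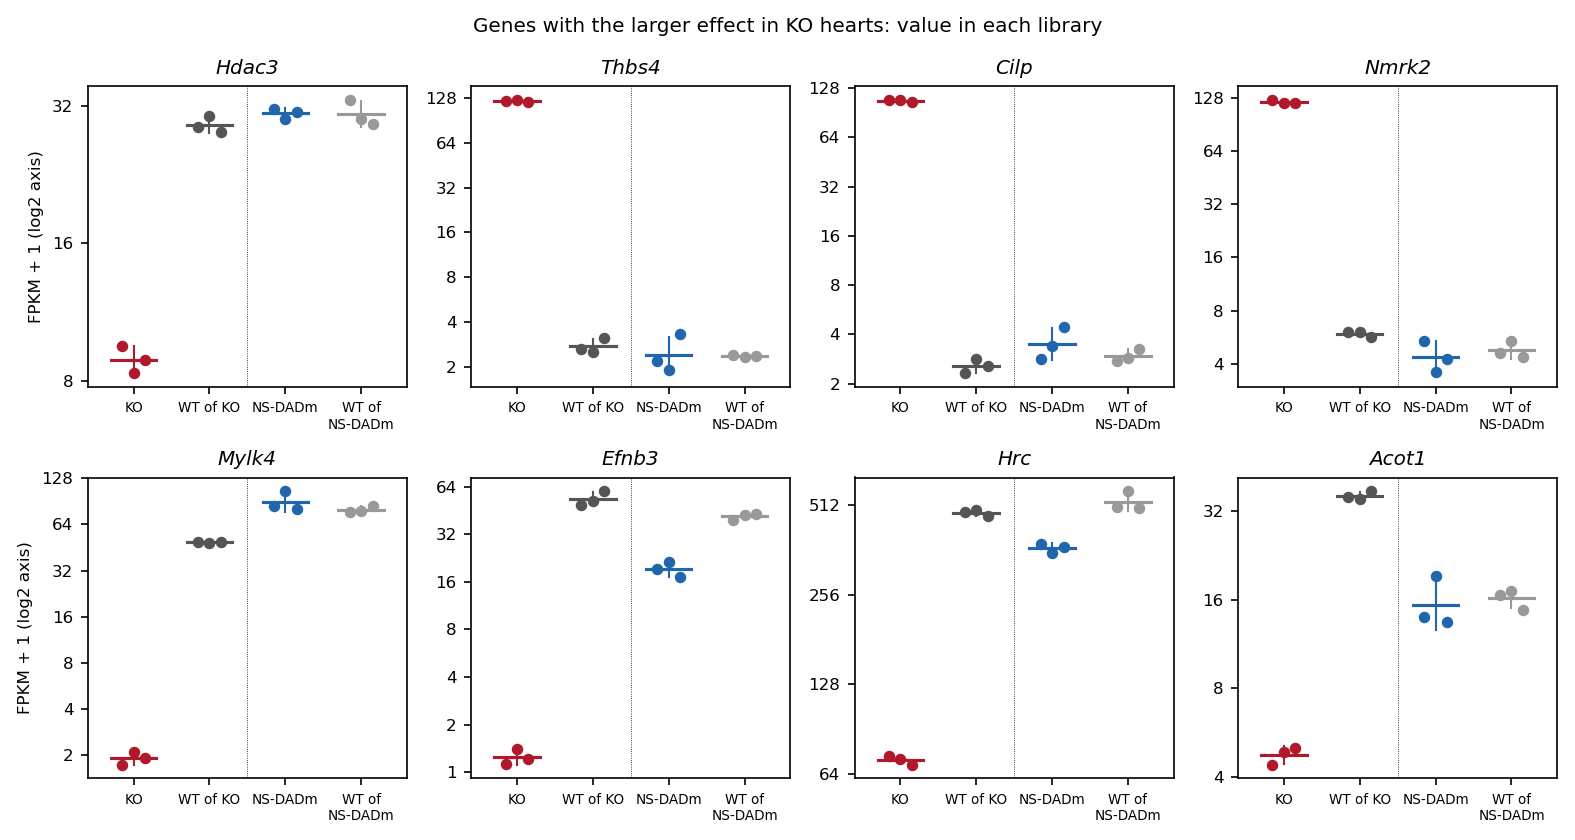
Each panel shows 1 gene as FPKM + 1 on a log2 axis, with 3 libraries in each of KO, its WT, NS-DADm and its WT. Points are libraries, horizontal lines are means of log2(FPKM + 1) and vertical lines are 1 SD either way. The KO libraries sit apart from all others in each panel, NS-DADm libraries of Efnb3 and Hrc lie below their own WT, and those of Hdac3, Thbs4, Nmrk2, Mylk4 and Acot1 overlap their own WT.

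The promoter sequences below, of GRCm38.p6 from RefSeq, belong to 1 gene for each pattern in the comparison. Each is the window from 250 bases before to 50 bases after the first start that RefSeq lists for the gene. All 5 lie on the minus strand and are written 5′ to 3′ in the direction of transcription. Thbs4 (chr13:92794769-92795068) was higher in KO, Mylk4 (chr13:32783915-32784214) was lower in KO, Ppargc1a (chr5:51567676-51567975) was lower in KO and higher in NS-DADm, Acta1 (chr8:123894726-123895025) was higher in both, and Kcnip2 (chr19:45816014-45816313) was lower in both. Capitals mark matches to the motifs searched.
Thbs4: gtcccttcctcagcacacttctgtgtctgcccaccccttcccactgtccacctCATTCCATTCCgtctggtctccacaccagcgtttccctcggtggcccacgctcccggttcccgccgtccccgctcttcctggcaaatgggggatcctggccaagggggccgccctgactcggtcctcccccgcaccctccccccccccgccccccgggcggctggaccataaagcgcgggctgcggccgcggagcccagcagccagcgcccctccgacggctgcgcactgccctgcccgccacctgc
Mylk4: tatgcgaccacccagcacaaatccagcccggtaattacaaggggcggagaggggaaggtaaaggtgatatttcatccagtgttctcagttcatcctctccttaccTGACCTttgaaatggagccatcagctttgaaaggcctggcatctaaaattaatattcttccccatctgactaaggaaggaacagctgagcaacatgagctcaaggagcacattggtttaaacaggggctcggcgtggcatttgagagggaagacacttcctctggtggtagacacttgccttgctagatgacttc
Ppargc1a: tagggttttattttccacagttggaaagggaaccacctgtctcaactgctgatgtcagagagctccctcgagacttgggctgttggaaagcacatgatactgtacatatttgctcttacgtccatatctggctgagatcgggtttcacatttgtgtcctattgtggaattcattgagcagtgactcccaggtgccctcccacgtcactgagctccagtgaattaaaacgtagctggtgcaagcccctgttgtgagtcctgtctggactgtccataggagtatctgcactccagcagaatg
Acta1: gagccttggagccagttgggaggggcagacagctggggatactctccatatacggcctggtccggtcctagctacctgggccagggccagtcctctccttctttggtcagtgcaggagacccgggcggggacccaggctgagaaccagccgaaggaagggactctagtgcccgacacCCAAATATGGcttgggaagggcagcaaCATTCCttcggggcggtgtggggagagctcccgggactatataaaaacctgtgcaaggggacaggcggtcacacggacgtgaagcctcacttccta
Kcnip2: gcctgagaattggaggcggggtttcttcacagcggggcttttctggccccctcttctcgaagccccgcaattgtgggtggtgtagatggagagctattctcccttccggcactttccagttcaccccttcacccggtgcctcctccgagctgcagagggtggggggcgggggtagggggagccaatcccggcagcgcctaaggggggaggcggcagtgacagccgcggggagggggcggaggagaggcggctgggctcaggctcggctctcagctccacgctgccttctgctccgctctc

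The motifs were searched on both strands and were AGGTCA (a nuclear receptor half-site), TGANTCA (AP-1), CATTCC (TEAD), TGATGNAA (ATF4 composite), CACGTG (E-box) and the CArG box of serum response factor. The Thbs4 window holds 2 overlapping TEAD matches, the Mylk4 window holds 1 nuclear receptor half-site, and the Acta1 window holds 1 CArG box and 1 TEAD match. The windows of Ppargc1a and Kcnip2 hold no match to these letters. A window was found for 9239 of the 11662 genes. The nuclear receptor half-site was in 11.9% of them, in 14.1% of the 460 windows with a difference beyond 1.5-fold higher and in 14.5% of the 227 with one beyond 1.5-fold lower, against 16.0% of all 27025 RefSeq windows. The AP-1 letters were in 4.85% of the windows of all genes tested, in 8.91% of the higher and 6.17% of the lower set, against 7.93% of all RefSeq windows. The ATF4 letters were in 2.24%, 4.78% and 2.2%, against 4.06% of all RefSeq windows, and the E-box in 10.3%, 6.52% and 7.49%, against 7.24%. The TEAD letters were in 12%, 10.9% and 13.7%, against 14.6%, and the CArG box in 1.39%, 2.17% and 2.64%, against 1.57%.

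Mitochondrial energy genes were lower in KO hearts than in their WT, and in NS-DADm hearts they were close to their own WT. Of 38 genes of oxidative phosphorylation, which make the respiratory chain and ATP synthase, 37 had a lower difference and 0 a higher one, against backgrounds of 17.7% and 28.2%. All 38 were called lower in KO and 2 in NS-DADm. The list had a median KO effect of -0.67 and a median NS-DADm effect of -0.05, against medians of 0.06 and -0.02 over all genes. It summed to between 31500 and 32200 FPKM in KO libraries, against 49900 and 52100 in their WT. In NS-DADm libraries it summed to between 34800 and 37200 FPKM, against 35400 and 38700 in their WT. The WT groups of the separately normalized tables thus differed in level. Sdhb, a subunit of complex II, read 573.35, 590.65 and 595.17 FPKM in KO libraries, against 1180.62, 1189.84 and 1227.93 in their WT. It read 805.95, 825.58 and 831.41 FPKM in NS-DADm libraries, against 950.96, 925.3 and 873.11 in their WT. Both mutants lay below their WT without overlap, and the fall in KO was the larger, with a difference of -0.87 (-1.0 to -0.74). Cox8b of complex IV, Atp5j of the ATP synthase and Uqcrq of complex III had differences of -1.05, -0.89 and -0.89. Only 6 of the 38 passed the test for more than 1.5-fold. These are bulk hearts, in which fewer cells of a type and less RNA per cell cannot be told apart.

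Fatty acid oxidation followed the same course. Of 32 genes the difference was lower in 28 and higher in 1, with a median of -0.71 in KO and -0.08 in NS-DADm. Acaa2, the last thiolase of the mitochondrial spiral, read 297.1, 312.76 and 303.15 FPKM in KO libraries, against 957.66, 923.9 and 974.73 in their WT. It read 558.61, 584.41 and 524.26 FPKM in NS-DADm libraries, against 620.33, 600.92 and 586.99 in their WT. The difference was -1.52 (-1.67 to -1.38), and the NS-DADm effect of -0.12 was not called. Ech1 and Eci1, isomerases for unsaturated fats, had differences of -1.28 and -1.15. Acsl6, an acyl-CoA synthetase, was the exception, with 8.76, 8.50 and 9.22 FPKM in KO libraries, against 4.79, 4.25 and 4.19 in their WT, and a difference of 0.85.

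Other mitochondrial lists were also mostly lower. In the TCA cycle list of 23 genes 16 differences were lower and 1 was higher. Idh3b, Suclg2 and Mdh2 stood at -0.85, -0.73 and -0.64, and the exception Mpc1, a subunit of the pyruvate carrier, at 0.30. In the list for breakdown of branched chain amino acids 19 of 21 differences were lower and 0 higher, led by Mccc2 (-1.16), Bckdhb (-1.14) and Acat1 (-0.99). Acat1 also fell in NS-DADm, by 0.25. Mitochondrial ribosomal proteins did not share the pattern, with 9 lower and 5 higher of 35. Mrps35 fell by 0.84 in KO and Mrps23 rose by 0.80.

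PPAR target genes were lower in KO hearts, and some of their regulators moved in opposite directions in the mutants. Of 20 PPAR targets the difference was lower in 15 and higher in 0. Acot1, an enzyme that splits acyl-CoA, read 3.41, 3.85 and 4.04 FPKM in KO libraries, against 34.62, 34.11 and 36.32 in their WT. It read 12.97, 18.25 and 12.43 FPKM in NS-DADm libraries, against 15.64, 16.15 and 13.78 in their WT, which overlapped. Its difference was -2.84 (-3.19 to -2.5), and the WT groups of the separately normalized tables differed in level. Lpl, the lipase that frees fatty acids from lipoproteins, fell by 0.61 in KO, and its NS-DADm effect of 0.09 was not called. Of 31 nuclear receptors and coactivators 15 differences were lower and 1 higher. In KO 15 were called lower and 3 higher, and in NS-DADm 6 were called higher and 0 lower.

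Within that list 4 genes had called effects of opposite sign, among them the best known activators of the oxidative program. Ppargc1a encodes PGC-1α, the coactivator of mitochondrial biogenesis. It read 12.16, 10.77 and 11.62 FPKM in KO libraries, against 23.75, 24.25 and 23.78 in their WT. It read 47.02, 60.92 and 32.18 FPKM in NS-DADm libraries, against 23.63, 25.28 and 31.25 in their WT. The KO libraries were all lower and the NS-DADm libraries all higher than their WT, by effects of -1.0 and 0.75 and a difference of -1.74 (-2.30 to -1.18, adjusted p = 0.000194). Ppara, the fatty acid receptor itself at chr15:85734910-85806851, read 6.86, 6.45 and 6.67 FPKM in KO libraries, against 14.14, 13.73 and 14.92 in their WT. It read 26.12, 26.59 and 23.21 FPKM in NS-DADm libraries, against 19.24, 17.96 and 20.49 in their WT, and neither pair overlapped. The effects were -0.99 and 0.38, with a difference of -1.37 (-1.57 to -1.17). Perm1, a muscle regulator induced by PGC-1 proteins, had effects of -1.18 and 0.30 and a difference of -1.49. With the NS-DADm experiment fitted alone, the NS-DADm call held for Ppara (limma adjusted p = 0.0363) and was lost for Ppargc1a (0.19) and Perm1 (0.0544). Rxrg, a partner of many nuclear receptors, fell by 1.07 in KO, and its NS-DADm effect of 0.10 was not called. Ppard rose in both, by 0.63 in KO and 0.27 in NS-DADm.

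Genes of lipid storage were mostly lower in difference. In the lipid droplet list of 23 genes 12 differences were lower and 3 higher. Fitm1, which buds lipid droplets from the endoplasmic reticulum, read 26.14, 24.86 and 23.91 FPKM in KO libraries, against 138.18, 136.54 and 130.1 in their WT. It read 140.47, 151.34 and 134.43 FPKM in NS-DADm libraries, against 165.78, 156.87 and 150.17 in their WT, and the difference was -2.24 (-2.41 to -2.07). Dgat2, which makes triglyceride, and Plin4, a droplet coat protein, had differences of -1.42 and -1.47. The 3 higher ones were Pnpla2, the adipose triglyceride lipase, its activator Abhd5, and Lpin2, at 0.39, 0.43 and 0.41, and Lpin2 was lost under 1 alternative. In the list for fatty acid synthesis 5 differences were lower and 3 higher of 17, led by Scd4 and by Thrsp and Mlxipl, which promote lipogenesis, at -1.85 and -1.07. Cholesterol genes had few calls, with 3 lower of 18, a share near the 17.7% of all genes, and 0 higher. Among the lower ones was the sterol sensor Insig1 at -1.31.

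**Figure D3:**
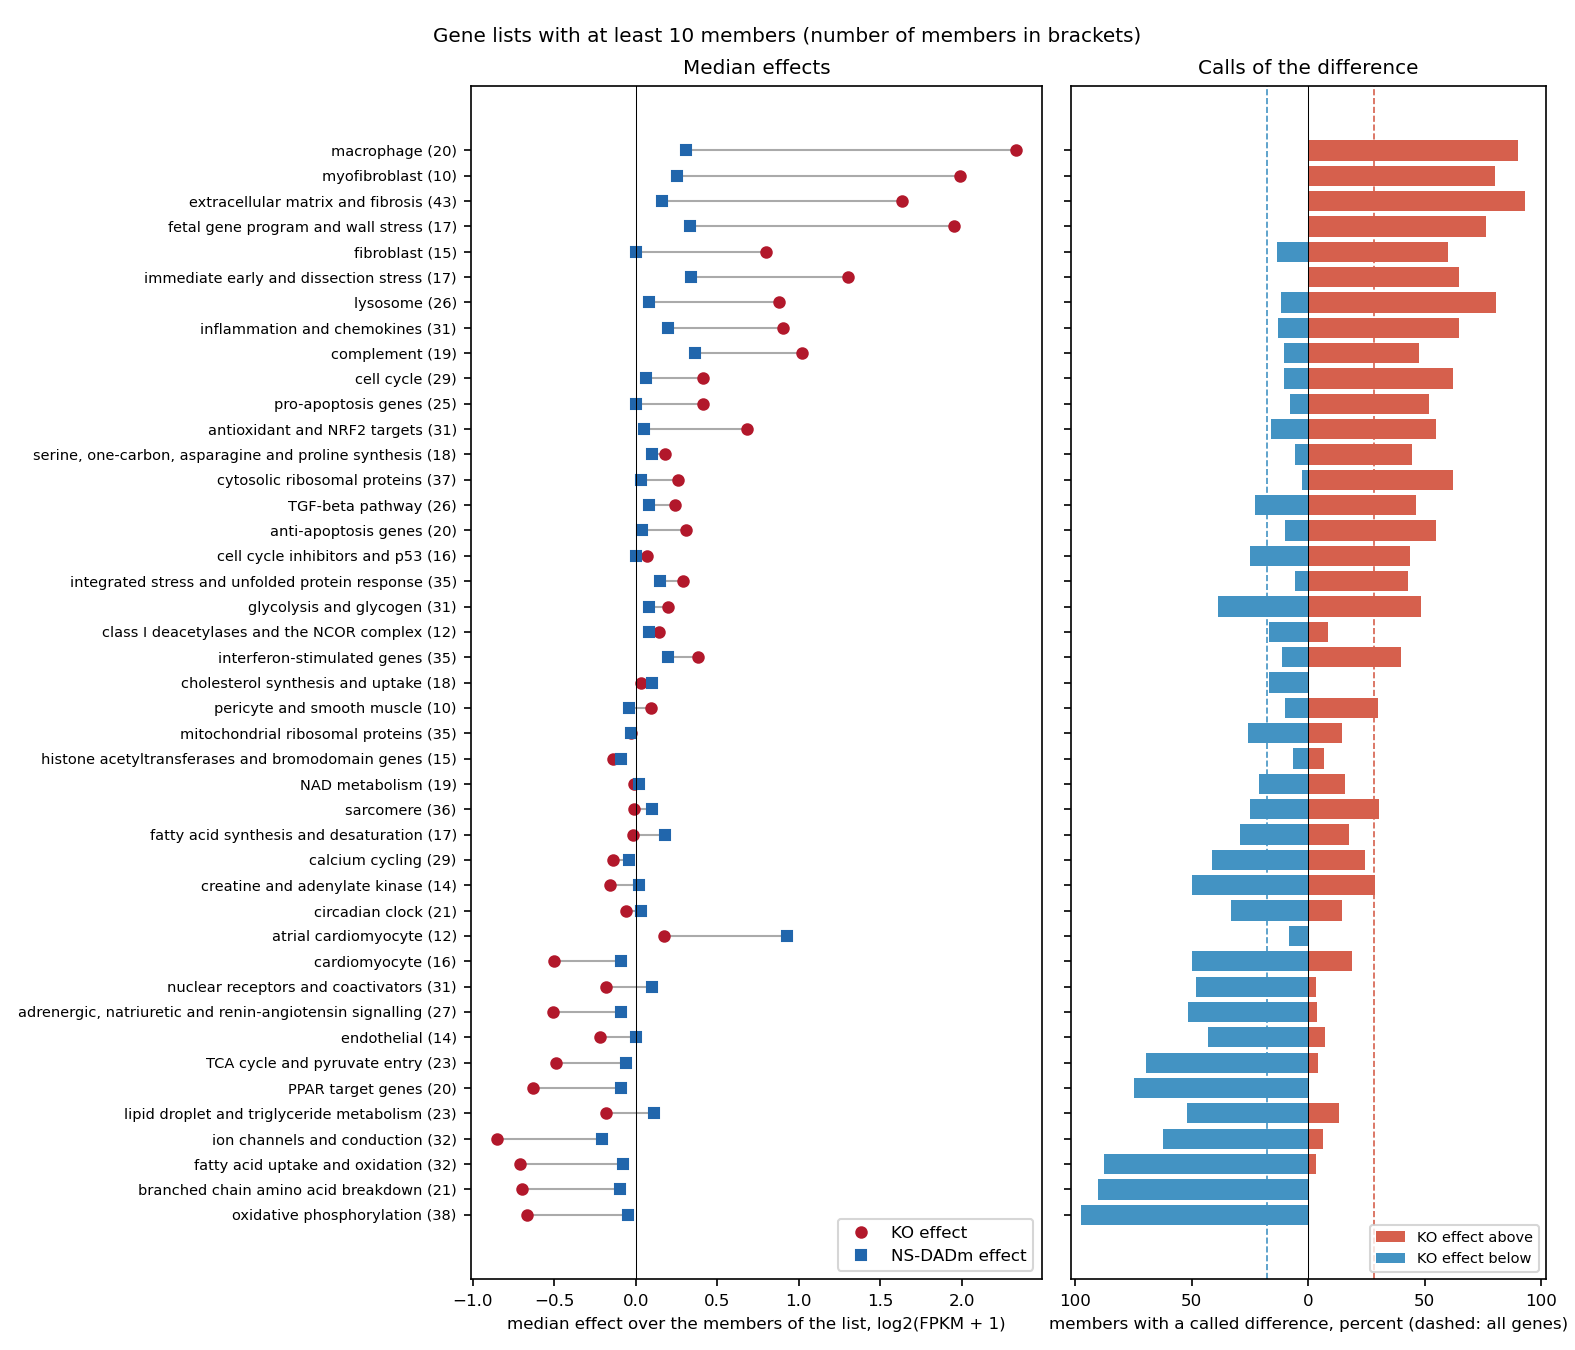
Lists with at least 10 genes tested, ordered by the median difference. On the left are the median KO effect (red circle) and the median NS-DADm effect (blue square) in log2(FPKM + 1) units, and on the right the percent of each list with a difference called higher (red) or lower (blue), with dashed lines at 28.2% and 17.7% for all genes. The NS-DADm medians sit near 0 in nearly every list, whereas KO medians reach 2.33 for macrophage markers and -0.85 for ion channels, and the atrial list has its larger median in NS-DADm.

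The extracellular matrix list held more higher differences than any other list. Of 43 genes 40 had a higher difference and 0 a lower one, and 32 passed the test for more than 1.5-fold. The filter let in 3 of the 43 through KO libraries alone, where they are high. The median effect was 1.63 in KO and 0.16 in NS-DADm. Col3a1, a fibrillar collagen, read 270.29, 263.45 and 261.3 FPKM in KO libraries, against 48.8, 54.5 and 51.75 in their WT. It read 43.12, 38.93 and 42.51 FPKM in NS-DADm libraries, against 46.4, 37.61 and 29.37 in their WT, which overlapped, and the difference was 2.18 (1.83 to 2.54). Col1a1 and Col1a2 had differences of 2.05 and 2.06, and Timp1, an inhibitor of matrix proteases, of 3.38. Lum, a collagen-binding proteoglycan, read 219.84, 229.36 and 238.17 FPKM in KO libraries, against 86.59, 86.65 and 95.63 in their WT, and it fell in NS-DADm, to 57.6, 50.61 and 62.53 FPKM, against 69.79, 63.61 and 72.24. Its difference was 1.61.

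Markers of the cells that make matrix moved with these genes. Of 10 myofibroblast markers 8 had a higher difference and 0 a lower one, but 2 of the 10 reached 1 FPKM in KO libraries alone, and with the filter of 1 FPKM in 3 or more libraries of each experiment 5 were higher. Postn (periostin), the classic marker of activated fibroblasts, read 174.86, 177.36 and 177.52 FPKM in KO libraries, against 13.86, 12.85 and 14.19 in their WT. It read 19.84, 15.53 and 26.91 FPKM in NS-DADm libraries, against 14.19, 15.79 and 17.99 in their WT, and the difference was 3.27 (2.83 to 3.72). Of 15 fibroblast markers 9 were higher and 2 lower, the lower ones being Gsn (-0.75) and Fbln1 (-1.28). The part of cell numbers in the matrix result was not tested. In the TGF-β list of 26 genes, of which the filter let in 1 through KO libraries alone, 12 were higher and 6 lower. Its ligands Tgfb2 and Tgfb3 had differences of 2.10 and 1.32, Tgfb3 also rose by 0.50 in NS-DADm, and the inhibitor Smad6 had effects of -0.64 and 0.53.

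The fetal and wall stress program, which the failing heart reactivates, was higher in KO hearts. Part of its genes were also called higher in NS-DADm hearts, where the median effect was smaller. Of 17 genes 13 had a higher difference and 0 a lower one, with medians of 1.95 in KO and 0.33 in NS-DADm. In KO 15 were called higher, and in NS-DADm 9 were called higher and 0 lower, where 4.69% of all genes were called higher. The list summed to between 4110 and 8810 FPKM in NS-DADm libraries, against 4020 and 6200 in their WT, so the groups overlapped. With the NS-DADm experiment fitted alone, its calls over all genes fell from 1140 to 304. How many of the 9 calls remained was not counted, and the part of atrial content in them was not tested. Ankrd1, a stretch-sensing protein of the sarcomere, read 3955.17, 3938.85 and 3925.62 FPKM in KO libraries, against 654.93, 631.5 and 627.81 in their WT. It read 486.37, 290.2 and 543.37 FPKM in NS-DADm libraries, against 454.27, 563.01 and 551.7 in their WT, and the difference was 2.92 (2.30 to 3.53). Xirp2, an actin-binding protein of the intercalated disc, had a difference of 2.47. Nppa, the atrial natriuretic peptide, read 1876.64, 1847.31 and 1812.65 FPKM in KO libraries, against 112.13, 117.43 and 119.74 in their WT. It read 2329.25, 369.76 and 4203.68 FPKM in NS-DADm libraries, against 403.98, 243.31 and 2728.12 in their WT. Nppa followed the atrial-rich libraries in the NS-DADm experiment, and its difference of 2.73 was not called (adjusted p = 0.171).

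Of 36 sarcomere genes 11 differences were higher and 9 lower, against 28.2% and 17.7% of all genes, so the shares were near those of all genes. After median centring 15 were lower. Tnni3, the inhibitory troponin of adult heart, read 3024.61, 3105.93 and 3051.31 FPKM in KO libraries, against 8687.02, 8158.74 and 7732.28 in their WT. It read 7628.43, 6964.95 and 6644.62 FPKM in NS-DADm libraries, against 7792.88, 7785.53 and 7024.66 in their WT, and the difference was -1.33 (-1.51 to -1.15). Myom2, a protein of the M band, fell by 2.89 in KO and by 0.47 in NS-DADm. Myl2 and Myl3, the ventricular light chains, had differences of -1.15 and -0.87. Mybpc3, myosin-binding protein C, went the other way. It read 1754.16, 1758.16 and 1714.24 FPKM in KO libraries, against 801.91, 832.47 and 812.4 in their WT, and 762.01, 737.34 and 777.34 FPKM in NS-DADm libraries, against 934.11, 930.3 and 911.92 in their WT. Its effects of 1.09 and -0.29 were both called. Of 16 cardiomyocyte markers the difference was lower in 8 and higher in 3, which were Mybpc3 and the transcription factors Nkx2-5 and Gata4.

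Electrical genes were lower in KO hearts and, in part, in NS-DADm hearts. Of 32 ion channel and conduction genes 27 were called lower in KO and 14 in NS-DADm, where 5.08% of all genes were called lower. The median effect was -0.85 in KO and -0.21 in NS-DADm, and the difference was lower in 20 and higher in 2. Kcnv2, a silent subunit of voltage-gated potassium channels, read 0.43, 0.24 and 0.35 FPKM in KO libraries, against 5.96, 5.71 and 6.45 in their WT. It read 3.93, 4.70 and 4.57 FPKM in NS-DADm libraries, against 5.43, 5.49 and 6.36 in their WT. Neither pair overlapped, and the difference was -2.07 (-2.34 to -1.80). Abcc9, the regulatory subunit of cardiac ATP-sensitive potassium channels, fell by 2.26 in KO and by 0.26 in NS-DADm. Kcnj3, an atrial inward rectifier, had a difference of -2.03, and in the NS-DADm experiment it was highest in replicate 3 of both groups.

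Gja1 went against the ion channel list, and calcium genes moved both ways. Gja1, which encodes connexin 43, read 159.8, 155.95 and 158.68 FPKM in KO libraries, against 127.96, 131.09 and 136.44 in their WT. It fell in NS-DADm, to 88.79, 81.59 and 95.82 FPKM, against 124.04, 139.51 and 111.65, and the difference was 0.75 (0.53 to 0.97). Of 29 calcium cycling genes 12 differences were lower and 7 higher, against 17.7% and 28.2% of all genes. Hrc, which binds calcium inside the sarcoplasmic reticulum, read 72.34, 70.97 and 67.76 FPKM in KO libraries, against 484.97, 492.25 and 469.25 in their WT, and 379.38, 352.65 and 369.23 FPKM in NS-DADm libraries, against 505.7, 571.05 and 501.03. It fell in both, with a difference of -2.24 (-2.41 to -2.08). Pln (phospholamban) fell by 1.04 in KO, and its NS-DADm effect of -0.06 was not called. Slc8a1, the sodium-calcium exchanger, had called effects of 0.64 and -0.22.

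In the list of adrenergic, natriuretic and renin-angiotensin signalling, which holds receptors, ligands and enzymes, the difference was lower in 14 and higher in 1 of 27. Adra1b, an α1-adrenergic receptor, read 1.52, 1.33 and 1.06 FPKM in KO libraries, against 14.65, 15.53 and 14.27 in their WT. It read 9.67, 9.58 and 8.67 FPKM in NS-DADm libraries, against 14.76, 12.77 and 12.7 in their WT, and the difference was -2.30 (-2.56 to -2.04). Gpr22, an orphan receptor of heart and brain, fell by 3.32 in KO and by 1.03 in NS-DADm. Ace, which makes angiotensin II, was the exception at 0.92. Agt, the precursor of angiotensin, had opposite effects and is described with those genes.

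Macrophage markers were higher in KO hearts, and some of them also in NS-DADm hearts. Of 20 markers 18 had a higher difference and 0 a lower one, with 20 called higher in KO and 9 in NS-DADm, where 4.69% of all genes were called higher. The filter let in 2 of the 20 through KO libraries alone. Medians were 2.33 in KO and 0.31 in NS-DADm. C1qc, a chain of complement C1q made by tissue macrophages, read 215.63, 211.1 and 217.04 FPKM in KO libraries, against 36.85, 38.95 and 39.28 in their WT. It read 70.4, 59.63 and 70.96 FPKM in NS-DADm libraries, against 43.41, 46.43 and 45.17 in their WT. Neither pair overlapped, and the difference was 1.89 (1.71 to 2.08). Ms4a7 and Cx3cr1, the fractalkine receptor, had differences of 3.28 and 2.63 and were not called in NS-DADm. The chemokines Ccl12, Ccl8 and Ccl2 had differences of 3.04, 2.57 and 2.26. In all 20 of 31 inflammation genes were higher and 4 lower (2 lower without KO replicate 2), the lower ones being Lcn2, Nfkbia, Vcam1 and Cxcl12, of which Vcam1 and Cxcl12 were lost under some alternatives. The filter let in 3 of the 31 through KO libraries alone.

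Other immune lists also held genes that rose in both mutants. Of 7 MHC class II genes 6 had a higher difference, while 7 were called higher in KO and 4 in NS-DADm, and none passed the test for more than 1.5-fold. The filter let in 1 of the 7 through KO libraries alone. H2-Ab1 rose by 1.51 in KO and by 0.65 in NS-DADm, with a difference of 0.86 (0.35 to 1.37). Near-identical copies make single MHC genes uncertain. Of 35 interferon-stimulated genes 14 were higher and 4 lower, against 28.2% and 17.7% of all genes, and 2 were lower without KO replicate 1. Of 26 lysosomal genes 21 were higher and 3 lower, with medians of 0.88 in KO and 0.08 in NS-DADm. Ctss, a protease of antigen-presenting cells, rose in both, with 108.3, 112.29 and 103.72 FPKM in KO libraries, against 15.34, 16.31 and 18.06 in their WT, and 31.86, 26.18 and 32.05 FPKM in NS-DADm libraries, against 13.6, 12.94 and 12.91 in their WT. Ctsk, a collagen-degrading protease, had a difference of 2.74 and an NS-DADm effect of -0.31 that was not called. Erythroid genes went the other way, with 5 of 5 differences lower, and Hbb-bt, a β-globin with a near-identical copy, at -1.12. The part of residual blood in the result was not tested.

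Stress response genes were mostly higher in KO hearts. Of 31 antioxidant genes 17 differences were higher and 5 lower. Hmox1, the heme oxygenase, read 49.77, 46.84 and 49.79 FPKM in KO libraries, against 8.19, 7.74 and 6.73 in their WT, and 10.67, 10.57 and 13.32 FPKM in NS-DADm libraries, against 8.51, 8.12 and 7.73 in their WT. It rose in both, with a difference of 2.09 (1.83 to 2.35). The 5 lower ones were Gsta3 and the mitochondrial or cytosolic enzymes Sod1, Sod2, Prdx5 and Prdx2, and Prdx2 was lost under some alternatives. In the integrated stress and unfolded protein list of 35 genes 15 were higher and 2 lower, against 28.2% and 17.7% of all genes. The lower ones numbered 6 without NS-DADm replicate 3, 4 without WT replicate 2 of that experiment and 8 after median centring. Ddit3 (CHOP) rose by 1.64 in KO, and its NS-DADm effect of -0.01 was not called. Asns, the asparagine synthetase, rose in both, by 3.07 in KO and 0.53 in NS-DADm.

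Serine and one-carbon genes included some of the larger rises. Of 18 genes 8 were higher and 1, Aldh1l1, was lower. Mthfd2, the mitochondrial folate enzyme of growing cells, read 54.16, 53.53 and 51.38 FPKM in KO libraries, against 2.15, 2.44 and 2.94 in their WT. It read 3.34, 2.47 and 4.68 FPKM in NS-DADm libraries, against 0.84, 1.28 and 1.51 in their WT. The gene rose in both, and the difference was 2.94 (2.47 to 3.42). Psat1 and Pycr1, enzymes of serine and proline synthesis, had differences of 1.97 and 1.88. Among immediate early and dissection stress genes 11 of 17 were higher and 0 lower, with 7 called higher in NS-DADm and medians of 1.30 in KO and 0.34 in NS-DADm. The filter let in 2 of the 17 through KO libraries alone. The part of dissection stress in the other results was not tested.

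In the cell cycle and cell death lists more differences were higher than lower, where 28.2% of all genes were higher and 17.7% lower. Of 29 cell cycle genes 18 were higher and 3 lower, but 8 of the 29 reached 1 FPKM in KO libraries alone and so passed the filter through the group where they are high. With 1 FPKM required in 3 or more libraries of each experiment 10 were higher and 3 lower. In NS-DADm 1 was called higher and 2 lower of 29, a share near the 9.78% of all genes. Mki67, the proliferation marker, read 4.21, 4.45 and 3.94 FPKM in KO libraries, against 0.89, 0.80 and 0.58 in their WT, and 1.16, 1.31 and 1.18 FPKM in NS-DADm libraries, against 1.16, 1.05 and 1.5 in their WT. Its difference was 1.58 (1.27 to 1.88). Ccnd2, a D-type cyclin, fell by 1.14 in KO and by 0.27 in NS-DADm. Of 20 anti-apoptosis genes 11 were higher and 2 lower, and of 25 pro-apoptosis genes 13 were higher and 2 lower. The filter let in 1 gene of each of these lists through KO libraries alone. Bnip3, a mitophagy receptor on the pro-apoptosis list, rose in NS-DADm by 0.57, and its KO effect of -0.01 was not called.

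Genes of glycolysis and glycogen moved both ways. Of 31 genes 15 were higher and 12 lower. Gapdh read 11231.94, 10870.43 and 10594.23 FPKM in KO libraries, against 4461.46, 4606.73 and 4545.63 in their WT. In NS-DADm libraries it read 5081.97, 4526.37 and 4453.03 FPKM, against 4424.7, 4106.5 and 3989.34 in their WT, and the difference was 1.10. Hk1 and Slc2a1 (GLUT1), isoforms abundant in the fetal heart, had differences of 1.12 and 1.39, and Hk2 and Slc2a4 (GLUT4), those of adult muscle, had -0.43 and -0.41. Pfkfb1, a regulator of glycolytic flux, fell by 2.99 in KO and by 0.56 in NS-DADm. Gys1, the muscle glycogen synthase, rose in NS-DADm by 0.45, and its KO effect of 0.05 was not called. Ckm, muscle creatine kinase, had a difference of -1.18.

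The remaining lists showed small or mixed differences, where 28.2% of all genes were higher and 17.7% lower. Of 37 cytosolic ribosomal proteins 23 were higher and 1 lower, with a median difference of 0.25, and the count of higher ones fell to 13 after median centring. Rpl3 stood apart at 0.86. Of 15 acetyltransferase and bromodomain genes 1 was higher and 1 lower. Of 21 clock genes 7 were lower and 3 higher, with Hlf at -1.24 and Dbp at -0.75. Dbp read 28.03, 28.25 and 27.87 FPKM in KO libraries and 56.58, 52.3 and 48.86 in their WT, and 125.31, 109.34 and 103.47 FPKM in NS-DADm libraries and 150.19, 127.06 and 98.59 in their WT. The tables were normalized separately, and no source used here gives the time of tissue collection. Of 14 endothelial markers 6 were lower and 1 higher, and among 10 pericyte and smooth muscle markers 3 were higher and 1 lower.

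Effects called in both mutants but in opposite directions were found in 157 of the 11662 genes tested. Of these, 86 were higher in KO and lower in NS-DADm and 71 the reverse. All 157 had a called difference, since opposite effects add in it. Myot, a Z-disc protein at chr18:44334053-44355740, read 10.48, 9.15 and 8.55 FPKM in KO libraries, against 31.7, 27.93 and 31.07 in their WT. It read 78.52, 97.31 and 102.18 FPKM in NS-DADm libraries, against 25.88, 32.52 and 29.5 in their WT. The KO libraries lay wholly below and the NS-DADm libraries wholly above their WT, with effects of -1.59 and 1.63 and a difference of -3.21 (-3.53 to -2.90). Nnt, the mitochondrial transhydrogenase that supplies NADPH, lies at chr13:119335527-119409257. It read 79.05, 77.31 and 78.42 FPKM in KO libraries, against 252.32, 252.43 and 253.41 in their WT, and 463.35, 483.43 and 422.91 FPKM in NS-DADm libraries, against 191.42, 201.16 and 190.17 in their WT. The effects were -1.68 and 1.23, with a difference of -2.91 (-3.05 to -2.76, adjusted p = 2.7e-12).

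Agt read 1.11, 1.26 and 1.18 FPKM in KO libraries, against 4.49, 3.94 and 4.19 in their WT, and 7.90, 5.74 and 8.20 FPKM in NS-DADm libraries, against 3.07, 2.75 and 2.74 in their WT. Its effects were -1.25 and 1.09, with a difference of -2.34. Scn4b, a β subunit of cardiac sodium channels, read 16.68, 15.76 and 17.12 FPKM in KO libraries, against 39.91, 36.38 and 39.05 in their WT, and 20.11, 27.57 and 25.34 FPKM in NS-DADm libraries, against 16.9, 14.15 and 12.81 in their WT. Lrrc52, an auxiliary subunit of potassium channels, and Gbp6, an interferon-induced GTPase, completed the genes lower in KO and higher in NS-DADm, at differences of -2.35 and -2.28. In the other direction Lad1 read 16.84, 17.11 and 15.46 FPKM in KO libraries, against 0.83, 0.88 and 0.98 in their WT, and 0.94, 0.37 and 1.06 FPKM in NS-DADm libraries, against 1.62, 1.71 and 3.20 in their WT. Rbpms2, an RNA-binding protein of heart and smooth muscle, rose by 0.63 in KO and fell by 0.98 in NS-DADm. Uchl1, Phlda1, Rasl11b and Lum also rose in KO and fell in NS-DADm. When the NS-DADm experiment was fitted alone, 36 genes had opposite called effects instead of 157, and of the 12 genes with the largest differences Myot, Nnt, Agt, Scn4b, Lrrc52 and Rbpms2 kept the NS-DADm call.

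A smaller set of genes changed in NS-DADm and not, or less, in KO. The larger fitted effect lay in NS-DADm for 356 called genes, 3.05% of all tested. Pttg1, the securin that holds sister chromatids together, lies at chr11:43420244-43427463 and read 4.41, 3.72 and 5.87 FPKM in NS-DADm libraries, against 148.05, 141.87 and 131.13 in their WT. In KO libraries it read 56.55, 59.96 and 61.87 FPKM, against 155.48, 175.55 and 159.65 in their WT. It fell in both mutants, by 4.66 in NS-DADm and 1.44 in KO, so the difference of 3.21 (2.89 to 3.53) was positive. Ndrg4, a cytoplasmic protein of heart and brain at chr8:95676974-95714956, read 25.1, 19.12 and 28.41 FPKM in NS-DADm libraries, against 109.71, 99.67 and 111.79 in their WT. In KO libraries it read 97.3, 99.78 and 93.92 FPKM, against 82.65, 85.29 and 87.78 in their WT, and that effect of 0.18 was not called. Its difference was 2.30 (1.99 to 2.61).

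Other genes lower in NS-DADm without a KO call were Ide, the insulin-degrading enzyme, Gamt, the last enzyme of creatine synthesis, Armcx3, Sh2d4a and Abracl, with NS-DADm effects between -0.84 and -0.54. Those higher in NS-DADm without a KO call were Retnla, a marker of alternatively activated macrophages, C3, the central complement component, Tmem100, Fnip2, Cebpb and Rnf144b. C3 read 67.73, 53.36 and 69.4 FPKM in NS-DADm libraries, against 29.12, 26.22 and 39.22 in their WT, and 46.99, 50.32 and 48.31 FPKM in KO libraries, against 54.1, 55.03 and 53.47 in their WT. Its NS-DADm effect was 1.00 and its difference -1.16 (-1.53 to -0.78). With the NS-DADm experiment fitted alone, C3 and Tmem100 kept the call among the 6 higher genes. Of the 6 lower ones Sh2d4a lost it, with an adjusted p = 0.0541, and the other 5 kept it.

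Genes changed in the same direction in both mutants numbered 746, with 376 higher and 370 lower. They made up most of the 903 genes called in both. These 903 were 12.9% of the KO-called genes, where 9.78% of all genes were called in NS-DADm. They were 79.2% of the NS-DADm-called genes, where 60.2% of all genes were called in KO. The difference was called in 445 of the 746 and not in 301, and the KO effect was the larger in 637. For 317 the 95% interval of the difference lay within 1.5-fold. Kcnip2, the potassium channel partner that shapes the transient outward current, lies at chr19:45792346-45816422. It read 34.86, 35.97 and 33.45 FPKM in KO libraries, against 90.99, 90.88 and 90.54 in their WT, and 47.37, 45.03 and 38.64 FPKM in NS-DADm libraries, against 109.54, 122.48 and 94.6 in their WT. The effects were -1.36 and -1.30, and the interval of the difference, from -0.32 to 0.19, excludes 1.5-fold. Hcn2, a pacemaker channel, read 2.62, 1.83 and 2.31 FPKM in KO libraries, against 10.92, 11.49 and 11.69 in their WT, and 2.79, 2.28 and 3.20 FPKM in NS-DADm libraries, against 10.34, 8.77 and 9.11 in their WT. Its difference of -0.46 was called (adjusted p = 0.0212) and was lost under some alternatives. Lrrc15 fell by 2.71 in KO and by 1.03 in NS-DADm.

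Cfp, the complement activator properdin, was higher in both to a like extent. It read 15.4, 15.67 and 15.23 FPKM in KO libraries, against 5.39, 6.22 and 6.54 in their WT, and 12.71, 11.51 and 14.18 FPKM in NS-DADm libraries, against 5.82, 4.71 and 5.17 in their WT. The effects were 1.22 and 1.15, with an interval of the difference from -0.19 to 0.34. Cdkn1a, the cell cycle inhibitor p21, rose by 2.23 in KO and by 1.24 in NS-DADm, and Mt2, a metallothionein with close relatives, by 3.13 and 1.18. With the NS-DADm experiment fitted alone the NS-DADm call of Cdkn1a held, and those of Mt2 (adjusted p = 0.0691) and Ctgf (adjusted p = 0.0831) were lost. Ctgf, a matrix-linked growth factor, read 359.59, 358.11 and 357.81 FPKM in KO libraries, against 25.34, 24.54 and 24.97 in their WT, and 104.56, 79.65 and 108.66 FPKM in NS-DADm libraries, against 36.57, 35.11 and 60.6 in their WT. Acta1, the skeletal actin of the fetal heart at chr8:123891758-123894775, read 2074.2, 2047.15 and 2030.3 FPKM in KO libraries, against 207.01, 219.63 and 207.62 in their WT. It read 376.38, 261.04 and 748.38 FPKM in NS-DADm libraries, against 191.98, 137.62 and 155.36 in their WT. The NS-DADm values of Acta1 were highest in the atrial-rich replicates 1 and 3. Its NS-DADm call was lost with Myl7 as a covariate (adjusted p = 0.0764) and in the experiment fitted alone (adjusted p = 0.212). Tpm2, a tropomyosin, rose by 1.91 and 1.31, and the interval of its difference was wide, from -0.30 to 1.51. The NS-DADm call of Tpm2 was lost in the experiment fitted alone (adjusted p = 0.172), and its difference became called, at 0.89, with Myl7 as a covariate and, at 0.54, without the 3 atrial-rich libraries.

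**Figure D4:**
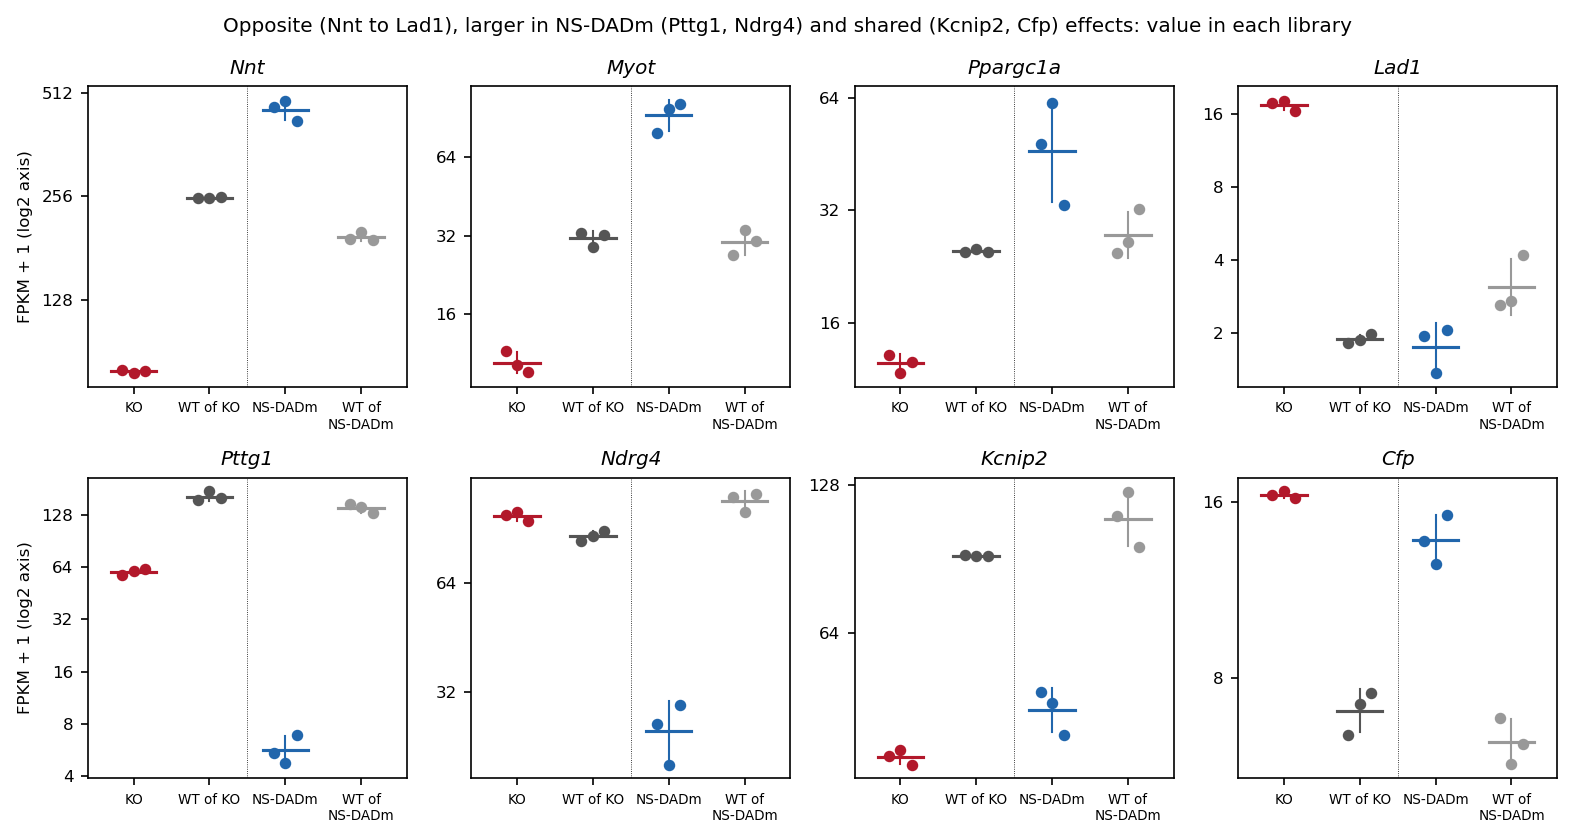
Each panel shows 1 gene as FPKM + 1 on a log2 axis, with 3 libraries in each of KO, its WT, NS-DADm and its WT, where points are libraries, horizontal lines means of log2(FPKM + 1) and vertical lines 1 SD either way. Nnt, Myot and Ppargc1a lie below WT in KO and above WT in NS-DADm, and Lad1 does the opposite. Pttg1 and Ndrg4 are lowest in NS-DADm, and Kcnip2 and Cfp shift alike in both, with effects of -1.36 and -1.30 and of 1.22 and 1.15.

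The number of NS-DADm calls depended on whether the experiments were fitted together or alone. With the NS-DADm experiment fitted alone 304 genes were called in place of 1140, of which 303 were called with the same sign in both fits. The genes called in both mutants in the same direction then numbered 233 in place of 746. The difference itself was steadier, with 5504 genes called when the experiments were fitted alone, 5308 of them shared with the 5348. Leaving out WT replicate 2 of the NS-DADm experiment gave 664 NS-DADm calls.

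Setting lists side by side gave another count than testing the difference. In the authors' deposited tables, with a q under 0.05 and a fold above 1.25, 5238 of the genes passed for KO and 399 for NS-DADm. The authors' deposited tables listed 4920 genes for KO and not for NS-DADm, and the difference was called in 3898 of them (79.2%) and not in 1022 (20.8%), while for 1175 the 95% interval lay within 1.5-fold. Of the 318 genes past the thresholds for both in the authors' deposited tables, the difference was called in 229 (72.0%), and 44 had folds of opposite sign. A further 81 passed for NS-DADm alone in the authors' deposited tables, and the difference was called in 56 of them.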

How the data were processed

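Hearts of 4 groups with 3 libraries each were compared. Per the submitters' processing notes, the tools were DESeq2 1.4.5, RSEM 1.2.12, HISAT2 2.0.4 and Bowtie2 2.2.5 on GRCm38.p6, with no role or order given, and per the labels SOAPnuke 1.5.2 removed adapter reads. The authors deposited FPKM values per gene, in 1 table per experiment. Beside them the authors deposited q-values and a signed fold change, a score that is minus the inverse ratio where a gene is lower. The tables were normalized separately. Genes whose symbol had become a date (24 in each table), a bare number (7), a repeat (2) or was missing (1) were left out, as were 3 columns that match no sample. In the NS-DADm experiment, 1654 to 2212 genes per library lacked a value and were taken as 0, which touches 73 of the genes tested. A filter of 1 FPKM in 3 libraries lets in genes through the group where they are high, and 222 genes passed through KO libraries alone. Depth per library is unknown, so no counting interval is given.

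A model with 4 group means and 1 shared spread was fitted to log2(FPKM + 1) of all 11662 genes with limma 3.58.1 (trend and robust moderation, statmod 1.5.0) in R 4.3.3. Calls have a Benjamini-Hochberg adjusted p under 0.05, intervals are at 95%, and a test against 1.5-fold was added. A change on this scale understates that of low genes. The test was checked on simulated data. The genes named are the deacetylases and corepressors targeted, the 12 highest and 12 lowest called differences among genes with a group mean of at least 5 FPKM, up to 6 genes each way for opposite effects, for NS-DADm effects without a KO call and for shared effects, and up to 4 genes per list by size of a called difference, with any that go against their list. Cyfip2, Eif3j1, Myl7, Nppa, Olfr1396 and Ccdc69 were chosen after their values were seen. The genes and lists were chosen with earlier results of these data known. Figures were drawn with matplotlib 3.10.9. Pseudocounts, filters, scalings, spread models, a replicate block and leaving out each library were tried as alternatives, and an atrial covariate and leaving out 3 atrial-rich libraries were added after seeing the data. Some genes are not reported here.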

Additional observations from a re-analysis of the deposited data

Results flagged for a closer look

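In 26 named genes the effects of KO and NS-DADm were both called, in opposite directions, and the test of the difference itself was called. Of these, 14 were lower in KO and higher in NS-DADm. Their differences were -3.21 for Myot, -2.91 for Nnt, -2.35 for Lrrc52, -2.34 for Agt, -2.28 for Gbp6 and -1.87 for Scn4b. They were -1.74 for Ppargc1a, -1.49 for Perm1, -1.37 for Ppara and -1.17 for Smad6, an inhibitor of BMP signalling. They were -0.88 for Bdh1, a ketone body dehydrogenase, -0.66 for Ldha, a lactate dehydrogenase, -0.43 for Hk2 and -0.33 for Ldb3, a Z-disc protein.

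The other 12 were higher in KO and lower in NS-DADm. Their differences were 4.02 for Lad1, 3.69 for Uchl1, 2.04 for Phlda1, 1.94 for Rasl11b, 1.61 for Lum and 1.60 for Rbpms2. They were 1.38 for Mybpc3, 0.87 for Slc8a1, 0.86 for Cldn5, a tight junction protein of endothelium, 0.75 for Gja1, 0.58 for Gata4 and 0.53 for Pdgfrb, a receptor of pericytes. With the NS-DADm experiment fitted alone, the NS-DADm call held for 9 of the 26, which were Myot, Nnt, Rbpms2, Lrrc52, Agt, Scn4b, Ppara, Gja1 and Mybpc3, and was lost for the other 17. Groups of 3 libraries are too small to test for a single library far from the others.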

How the results depend on the processing

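The count of 5348 called differences ranged between 4865 and 5303 when single libraries were left out, with 2984 to 3245 higher and 1874 to 2101 lower. The ranges were 6412 to 7160 for KO and 664 to 1241 for NS-DADm. They were 811 to 946 for differences beyond 1.5-fold (524 to 621 higher, 287 to 342 lower), 470 to 791 for effects called in the same direction, 89 to 198 for opposite directions and 269 to 464 for a larger effect in NS-DADm. The NS-DADm calls and the counts that build on them moved most. NS-DADm calls moved to 636 with library weights by experiment, 304 with each experiment fitted alone and 664 without WT replicate 2. Same-direction genes then numbered 470, 233 and 470, and opposite genes 89, 36 and 89. Without the 3 atrial-rich libraries, which leaves 1 NS-DADm library assumed to vary like the other groups, opposite genes numbered 242 and genes with a larger effect in NS-DADm 680. The cause of these moves was not tested. Differences beyond 1.5-fold split into 478 higher and 432 lower after median centring, 464 and 378 after quantile normalization, and 716 and 303 after rescaling.

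Same-numbered libraries had correlations of their deviations of -0.051, -0.037 and -0.010 in the KO experiment and 0.012, 0.374 and 0.434 in the NS-DADm experiment. Differently numbered libraries of the NS-DADm experiment had correlations between -0.445 and 0.198. The labels do not say that the numbers are pairs, and the main fit did not take them as such. Whether the replicate numbers of the NS-DADm experiment mark a shared origin was not tested. With the replicate block 5501 differences were called, 3362 higher and 2139 lower. Of 298 genes named by the fixed rule 290 had a called difference, of which 257 kept sign and call under all alternatives, 33 lost the call under at least 1 and 0 reversed. Among list counts, calcium cycling fell to 4 higher and mitochondrial ribosomal proteins to 3 higher and 11 lower after median centring, and fatty acid synthesis reached 6 higher without the 3 atrial-rich libraries. Cholesterol genes ranged over 0 to 3 higher and 2 to 5 lower. Depth of single libraries is unknown, so what it limits cannot be stated.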

Other observations

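The NS-DADm effect was called and at least 2-fold in 36 genes, 7 of them on chromosome 11, which holds 995 of the 11662 genes tested. Cyfip2, a subunit of the WAVE complex that controls actin, read 2.58, 2.94 and 2.34 FPKM in NS-DADm libraries, against 44.54, 46.18 and 39.82 in their WT. In KO libraries it read 18.78, 18.77 and 18.81 FPKM, against 29.41, 30.94 and 31.46 in their WT. Neither pair overlapped, with effects of -3.62 in NS-DADm and -0.67 in KO. Olfr1396 and Ccdc69, on the same chromosome, had NS-DADm effects of -1.18 and -1.05.

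The neighbourhoods of Ncor1 and Hdac3 were counted in windows of 10 Mb either side. Around Ncor1 the difference was called in 96 of 220 genes (43.6%), with the larger effect in NS-DADm in 10 (4.55%). Around Hdac3 it was called in 49 of 117 (41.9%), with 5 (4.27%). Over all genes the shares were 45.9% and 3.05%. These shares do not show the size of single differences. Among the 12 highest and 12 lowest called differences, Bin1 (3.66), Eif3j2 (-2.83) and Myot (-3.21) lie in the Hdac3 window. Efnb3 (-4.30) lies in the Ncor1 window. The part of the mutated loci or of linked sequence in these differences was not tested.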
